A study of Rattus norvegicus with 6 samples.

Results

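Thyroglobulin (Tg), the dual oxidases Duox1 and Duox2, and the maturation factors Duoxa1 and Duoxa2 were examined in maternal thyroids of rats. The members were chosen as the rows of the count files that carry these gene symbols, 5 of the 15388 genes listed. Each symbol matched 1 row, named by 1 Ensembl transcript: ENSRNOT00000009240 for Tg, ENSRNOT00000046843 for Duox1, ENSRNOT00000023939 for Duox2, ENSRNOT00000024245 for Duoxa1 and ENSRNOT00000024201 for Duoxa2. Polyadenylated RNA of whole thyroids was sequenced from adult non-pregnant (NP) Sprague-Dawley rats (3 samples) and from Sprague-Dawley rats on day 18 of pregnancy (late pregnancy, LP, 3 samples). The age of the animals is not given in the sources used here, and no transgene or drug was part of the design. The comparison asks whether the genes that make the hormone precursor and the peroxide for its iodination differ between LP and NP.

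Thyroid hormone is built on Tg, a very large glycoprotein that follicular cells secrete into the lumen of the follicle. At the apical membrane DUOX2, an NADPH oxidase, releases hydrogen peroxide, which is used to oxidise iodide and to attach it to tyrosines of Tg. DUOX1 is a close relative of DUOX2, and DUOXA1 and DUOXA2 are the partners that each oxidase needs to leave the endoplasmic reticulum and reach the cell surface. Duox genes are also active in epithelia outside the thyroid, including that of the airway.

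The libraries held between 2752144 and 3449857 counted reads, and a gene with 3 reads lay between 0.87 and 1.09 CPM (reads scaled to a library of 1000000). Counts of replicates 2 and 3 of a group differed by no more than sampling noise, with a chi-square per degree of freedom of 1.02 in NP and 0.995 in LP. Replicate 1 stood apart from them, with values from 3.70 to 4.11. For this reason a mean ± SD, and a spread between replicates, takes the mean of replicates 2 and 3 as a single value beside replicate 1 (n = 2 per group). An SD of 2 values is imprecise, and for the dual oxidase genes it can lie below the SD of counting alone. That same-group libraries come from separate animals is not stated for each library, so the p-values given here measure the spread between these libraries, which may be technical. The follicular lineage factors Nkx2-1, Pax8, Foxe1 and Hhex each had at least 664 reads in every library, so the thyroid label is matched by its defining factors.

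The 4 dual oxidase genes form 1 cluster in the rat genome, in the order Duox2, Duoxa2, Duoxa1 and Duox1, as 2 head-to-head pairs in which an oxidase and its maturation factor are read away from each other. The stretches that separate the annotated ends of each pair are shown because the genes on either side of them are compared below. They are taken from RefSeq on the GRCr8 build, not the rn5 build of the counts, and are written on the plus strand. The stretch between Duox2 and Duoxa2 (chr3:129698887-129698937) reads toward Duoxa2, and that between Duoxa1 and Duox1 (chr3:129714111-129714124) toward Duox1. Capitals mark TATAAA, the core of a TATA box.
Duox2 to Duoxa2: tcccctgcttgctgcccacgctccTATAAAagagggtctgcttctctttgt
Duoxa1 to Duox1: tgtccgctcttcac
The 6 letters TATAAA begin 27 bases before the annotated start of Duoxa2, on its own strand. Both strands were searched, and 3.23% of the 51-base windows that end at the start of the 33469 promoters in the RefSeq table hold these letters. The CCAAT box (CCAAT) and the GC box (GGGCGG), searched in the same way, were in neither stretch. They were in 7.95% and 12.8% of windows of 51 bases. In windows of 14 bases, the length of the second stretch, they were in only 1.46% and 2.6%, so their absence there tells little. The core CAAG, recognised by NKX2-1, occurred in the first stretch on the minus strand, and 32.7% of windows of 51 bases held it on either strand. None of these motifs overlapped another. A match describes the letters, and binding was not measured here.

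LP thyroids held more Duoxa2 and Duox2 RNA than NP thyroids, by 39.3% and 22.3%, while Tg, Duox1 and Duoxa1 did not pass the test. All 5 genes had enough reads to be tested. Under the quasi-likelihood test of edgeR, with p-values adjusted by Benjamini-Hochberg over 11738 genes, 2 of the 5 had an adjusted p-value below 0.05, both higher in LP and none lower. Of all genes tested, 27% were called, 15.3% higher and 11.7% lower in LP. The same genes, Duox2 and Duoxa2, were called with replicates 2 and 3 summed (21.4% of all genes), Tg was called besides them with the replicate block (32.2%), and DESeq2 called Duoxa2 alone (16.4%). None of the 5 changed more than 2-fold, a size that together with the adjusted p-value was met by 5.44% of genes. The upper end of the 95% interval of the fold change lay below 2 for each of the 5 genes. Their median log2 fold change was 0.22, against -0.0091 over all genes tested. In whole tissue a change in the number of follicular cells and a change in the RNA of each cell cannot be told apart.

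**Figure D1:**
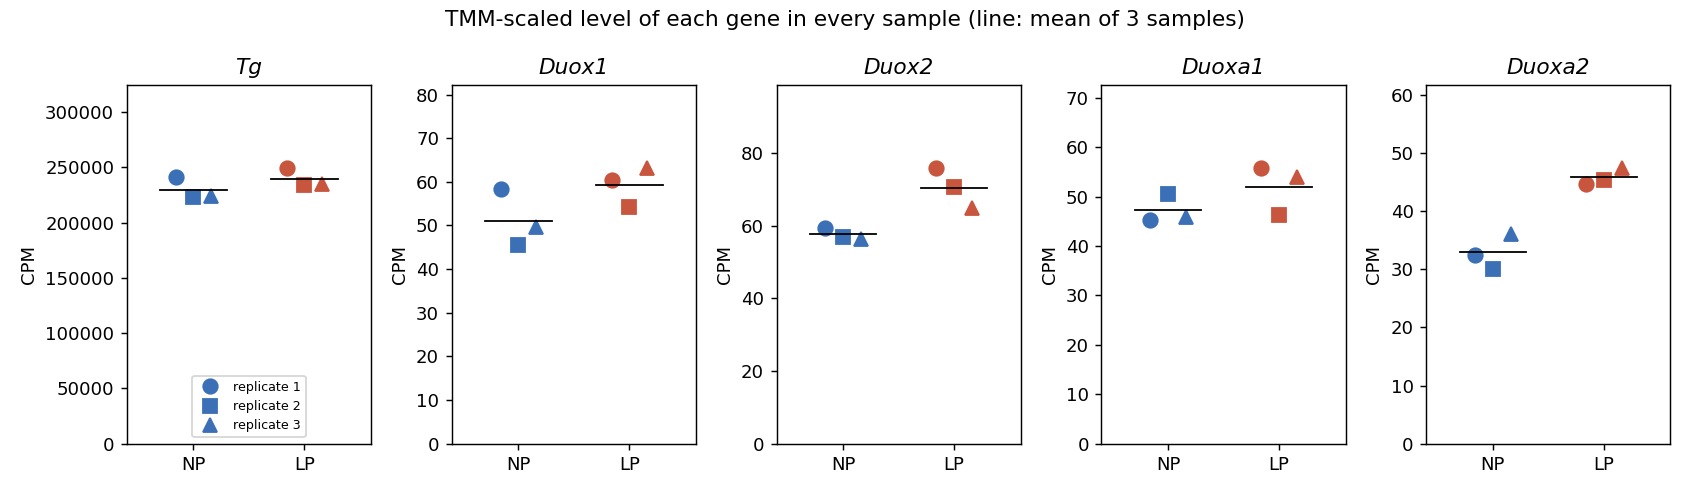
Level of each gene in the 3 NP (blue) and 3 LP (red) libraries, in CPM scaled by TMM, with symbols for the replicate number and a line at the mean of the 3 libraries. All LP libraries lie above all NP libraries for Duox2 and Duoxa2, as for 21.1% of all genes tested. The groups overlap for Tg, Duox1 and Duoxa1.

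Tg, the protein on which the hormone is made, was the most abundant RNA of the thyroid in these counts, ranking 1 of all genes by mean reads. It had 674258, 681014 and 682409 reads in NP replicates 1, 2 and 3, and 781929, 788524 and 791841 reads in LP replicates 1, 2 and 3. As a share of all counted reads this was 24.5%, 23.0% and 23.1% in NP, against 24.3%, 22.9% and 23.0% in LP. With so many reads the Wilson 95% interval of a share was narrow, from 24.4% to 24.6% in NP replicate 1 and from 24.2% to 24.3% in LP replicate 1. The groups overlapped, and the share was higher in replicate 1 than in the mean of replicates 2 and 3 by 1.48 percentage points in NP and 1.34 in LP. The difference between the groups was smaller, with LP minus NP at -0.15 percentage points over the 3 libraries of each group (spread between replicates 1.00, SD). It was -0.25 between the replicate 1 libraries and -0.10 between the means of replicates 2 and 3. Leaving out 1 library moved it between -0.60 (without LP replicate 1) and 0.34 (without NP replicate 1), and it was also above 0 without LP replicate 2 (0.10) or LP replicate 3 (0.045).

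On the TMM scale, a scaling that relies on genes with little change, Tg was 232240 ± 12237 CPM (SD, n = 2) in NP and 242041 ± 10748 CPM in LP. Its log2 fold change was 0.062 (standard error, SE, 0.023, 95% interval 0.013 to 0.11, adjusted p = 0.0594 by edgeR), and it turned to -0.0093 when libraries were scaled by their totals alone. The difference was thus a small fraction of the level and within the spread between replicates. That spread was mostly the higher level of replicate 1 in both groups, at 240893 CPM in NP and 249641 CPM in LP. Compared within replicate numbers, the log2 fold change on the TMM scale was 0.051 in replicate 1 and 0.068 in the other replicates. LP was thus higher in both comparisons on this scale, while the share of all counted reads was lower in LP in both. When replicate numbers were blocked, the log2 fold change stayed at 0.063, and the adjusted p-value of edgeR fell to 2.20e-42. That block left a coefficient of variation of 0.0131 in place of 0.0645 without it. The p-value with the block rests on this small spread, and some same-group libraries differed by no more than sampling noise. It therefore cannot be read as a measure of variation between animals. No label names the pairing that the block assumes. Without NP replicate 1, the library with the highest share of Tg, the log2 fold change was 0.099 (adjusted p = 0.000149 by edgeR), and without LP replicate 1 it was 0.025 (adjusted p = 0.365). The gene Sla lies inside Tg in the RefSeq annotation and had 42 to 67 reads in the 6 libraries. Whether the counting used strand is not stated.

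Duox2, the main peroxide-generating oxidase of follicular cells, was higher in every LP library than in every NP library. So were 21.1% of all genes tested. It had 166, 174 and 172 reads in NP and 238, 238 and 219 reads in LP. The mean level was 58.0 ± 1.8 CPM in NP and 71.9 ± 5.8 CPM in LP (SD, n = 2). The NP libraries lay close together, and the LP value of replicate 3 was the lowest of its group. The log2 fold change was 0.29 (SE 0.078, 95% interval 0.13 to 0.45, adjusted p = 0.00946 by edgeR). With replicates 2 and 3 summed it was 0.30 (adjusted p = 0.0266 by edgeR). The call was lost with DESeq2 in place of edgeR (adjusted p = 0.114) and without LP replicate 1 (log2 fold change 0.23, adjusted p = 0.0610 by edgeR).

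Duoxa2, the partner that carries DUOX2 to the cell surface, showed the larger rise. NP libraries held 91, 92 and 110 reads of it, and LP libraries 140, 153 and 160. The mean level was 32.8 ± 0.44 CPM in NP and 45.6 ± 1.2 CPM in LP (SD, n = 2). The NP libraries lay at 32.5, 30.1 and 36.1 CPM. Counting alone gave each count of Duoxa2 an SD of 7.91% to 10.5%, so the SDs of the means understate the spread. The groups did not overlap, which was also the case for 21.1% of all genes tested with LP above NP. The log2 fold change was 0.48 (SE 0.099, 95% interval 0.27 to 0.69, adjusted p = 0.00141 by edgeR), a fold change of 1.39 with an interval from 1.20 to 1.61. It was 0.46 in replicate 1 and 0.49 in replicates 2 and 3, and no alternative tried removed the call. The adjusted p-value was 0.0226 with DESeq2, and 17.2% of tested genes had a larger change in either direction.

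Duox1, the paralog of Duox2, had 163, 139 and 151 reads in NP and 189, 183 and 213 reads in LP. The mean level was 52.9 ± 7.5 CPM in NP and 59.5 ± 1.1 CPM in LP (SD, n = 2). The LP libraries ranged from 54.3 to 63.2 CPM, so the SD of 1.1 understates their spread. NP replicate 1, at 58.2 CPM, was above LP replicate 2, at 54.3 CPM, so the groups overlapped. The log2 fold change was 0.22 (SE 0.096, 95% interval 0.015 to 0.42, adjusted p = 0.108 by edgeR). It was 0.051 in replicate 1 and 0.30 in replicates 2 and 3. Without NP replicate 1 it was 0.32 and passed the test (adjusted p = 0.0267 by edgeR). How reads that match both oxidases were divided is not stated, so a share of reads may be uncertain between Duox1 and Duox2.

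Duoxa1, the maturation factor paired with DUOX1, had 127, 154 and 140 reads in NP and 175, 156 and 182 reads in LP. The mean level was 46.8 ± 2.0 CPM in NP and 53.0 ± 4.1 CPM in LP (SD, n = 2). LP replicate 2, at 46.3 CPM, lay among the NP values of 45.4, 50.4 and 46.0 CPM. The log2 fold change was 0.14 (SE 0.094, 95% interval -0.062 to 0.33, adjusted p = 0.325 by edgeR). It was 0.076 without LP replicate 1, 0.21 without LP replicate 2 and 0.064 with library totals alone, and none of these passed the test. Its order between replicates was opposite to that of Duox1, with 0.30 in replicate 1 and 0.057 in replicates 2 and 3. Counting alone gave the dual oxidase genes an SD of 6.48% to 10.5% of each count, against 0.112% to 0.122% for Tg.

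**Figure D2:**
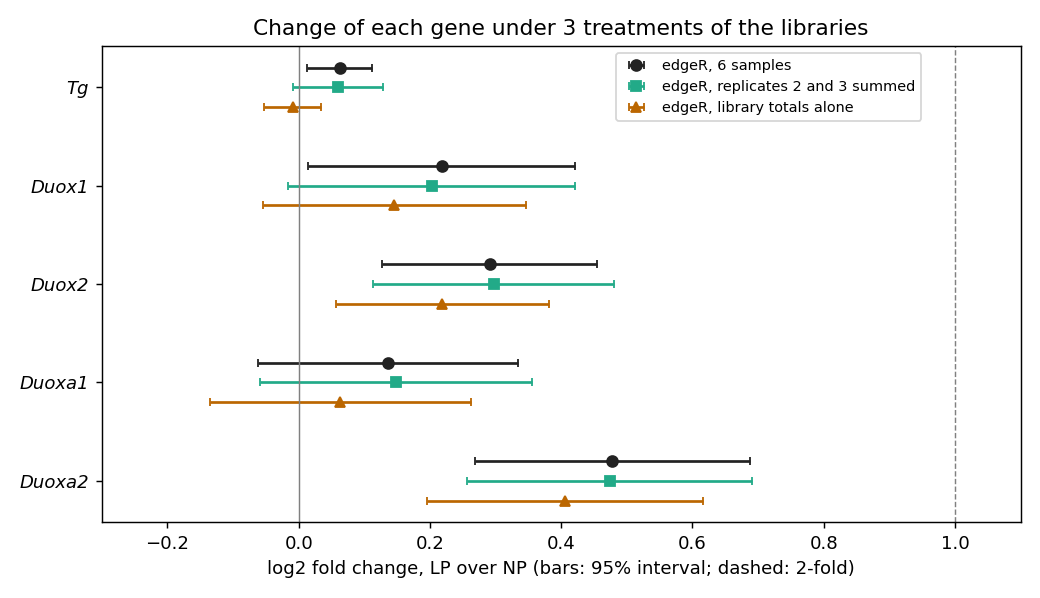
Log2 fold change of LP over NP for each gene with its 95% interval, from edgeR on the 6 libraries (black), with replicates 2 and 3 summed (green) and with libraries scaled by totals alone (orange). The intervals of Duox2 and Duoxa2 lie above 0 in all 3, those of Duoxa1 cross 0, and none reaches the dashed line at a 2-fold change.

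Ratios between these genes within a library do not depend on how libraries are scaled. For 1 Duox2 read, NP libraries held 0.548, 0.529 and 0.640 Duoxa2 reads and LP libraries held 0.588, 0.643 and 0.731. The groups overlapped, and the difference of the mean log2 ratio, was 0.19 against a spread between replicates of 0.12 (SD). The log2 ratio was higher in LP in each of the 3 same-numbered pairs, by 0.10, 0.28 and 0.19 in replicates 1, 2 and 3, of which the last 2 come from libraries counted as 1 sample. The Duoxa1 reads per Duox1 read were 0.779, 1.11 and 0.927 in NP and 0.926, 0.852 and 0.854 in LP, a difference of -0.082 on the log2 scale with a spread of 0.20. That difference was -0.21 without NP replicate 1 and 0.045 without NP replicate 2, so its sign rested on single libraries. Likewise, Duox1 reads per Duox2 read were 0.982, 0.799 and 0.878 in NP and 0.794, 0.769 and 0.973 in LP, a difference of -0.071 with a spread of 0.13. It was 0.0053 without NP replicate 1 and -0.18 without LP replicate 3.

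Duox2 was also set against Tg, the protein that is iodinated. There were 246, 256 and 252 Duox2 reads per 1000000 Tg reads in NP and 304, 302 and 277 in LP. The groups did not overlap, and how often ratios of other genes to Tg do so was not examined. The difference of the mean log2 ratio was 0.23 against a spread of 0.043 (SD), a ratio 1.17 times higher in LP. The difference is between means of all libraries of a group, while the spread takes replicates 2 and 3 as 1 value. Counting alone gave each Duox2 count an SD of 6.48% to 7.76%, so that spread is not a full measure of error. The Wilson 95% intervals for counting error overlapped between the groups, from 220 to 296 in NP replicate 2 and from 242 to 316 in LP replicate 3. The 4 dual oxidase genes together had 547, 559 and 573 reads in NP and 742, 730 and 774 reads in LP. These reads are not scaled, and the LP libraries were deeper. Scaled by TMM, the sums were 195, 183 and 188 CPM in NP and 237, 216 and 230 CPM in LP. No test was run on these ratios and sums.

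**Figure D3:**
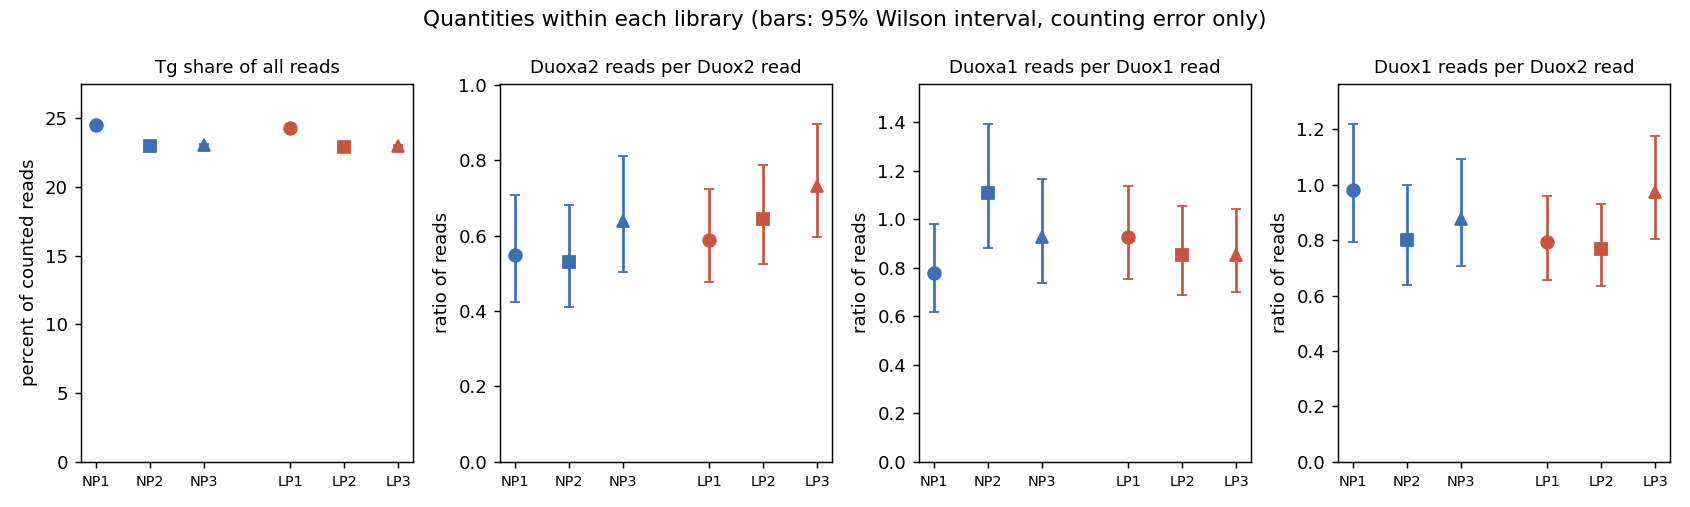
Share of Tg among all counted reads, in percent, and ratios of reads between dual oxidase genes in each NP (blue) and LP (red) library, with 95% Wilson intervals for counting error only. The share of Tg is higher in replicate 1 of both groups, at 24.5% and 24.3%, and the ratios of the groups overlap in each of the 3 ratio panels.

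By mean reads, not scaled to length, 23.7% of the genes tested lay above Duox2, 28.0% above Duox1, 31.3% above Duoxa1 and 38.8% above Duoxa2. For Tg, 82.7% of tested genes had a larger change in either direction, and for Duoxa1 64.3%. Tg, Duox2, Duoxa2 and Duoxa1 were each also compared with the 5366 other tested genes of at least 100 reads on average, by the Euclidean distance between centred log2 CPM profiles over the 6 libraries. The profile of Tg was nearest to those of Psmc4 (distance 0.021), Ptprf (0.023) and Reep5 (0.035), where the median distance was 0.35. Duox2 was nearest to Etfb (0.077), Irf2bp2 (0.078) and Sod3 (0.081), with a median distance of 0.51. Duoxa2 was nearest to Amigo1 (0.081), Pacsin3 (0.086) and Sidt2 (0.092), with a median of 0.71. The profile of Duoxa1 was nearest to those of Gltscr1 (0.075), Ccnt2 (0.085) and Slc22a5 (0.086), with a median of 0.44. The 6 libraries are few, and such a distance is a description of them.

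**Figure D4:**
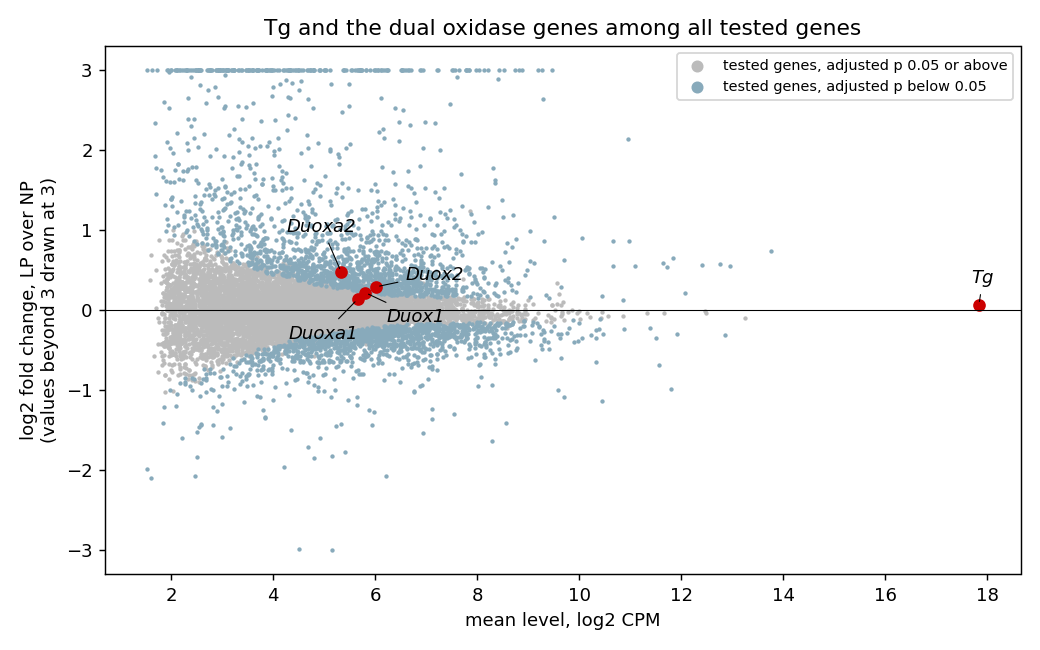
Log2 fold change of LP over NP against mean level in log2 CPM for the genes tested, with the 5 named genes in red and genes with an adjusted p-value below 0.05 in blue. Tg lies alone at the right end near no change, and the dual oxidase genes lie slightly above 0 and far to the left of Tg.

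Genes that act before and after iodination were called in both directions, where 27% of all genes tested were called (15.3% higher and 11.7% lower in LP). Of 9 tested genes of iodide handling and TSH receptor signalling, 3 fell and 1 rose (median log2 fold change -0.23). The sodium/iodide symporter Slc5a5 had 946 to 1077 reads in NP and 566 to 602 in LP (log2 fold change -0.94, SE 0.054, adjusted p = 3.06e-10 by edgeR). The TSH receptor gene Tshr fell from 949 to 990 reads in NP to 639 to 693 in LP (-0.68, adjusted p = 3.90e-07), and the chloride channel gene Ano1 by 0.29 on the log2 scale (adjusted p = 0.00230). With replicates 2 and 3 summed, the adjusted p-values of Slc5a5, Tshr and Ano1 were 2.31e-06, 0.000128 and 0.0135 by edgeR. Gnas, which encodes the stimulatory G protein subunit that couples to the TSH receptor, rose by 0.12 (adjusted p = 0.0234), a call lost with replicates 2 and 3 summed (adjusted p = 0.134) or with library totals alone (adjusted p = 0.296).

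The lineage factors that bind promoters of thyroid genes split, with 1 of 5 higher, 1 lower and 3 not called. Among all genes tested, 27% were called. Nkx2-1 rose by 0.28 (SE 0.060, adjusted p = 0.00208 by edgeR) and Hhex fell by 0.26 (adjusted p = 0.000676). The log2 fold changes of Pax8 and Foxe1 were -0.062 and -0.052, neither past the test, and with library totals alone Pax8 was called lower (-0.13, adjusted p = 0.0381).

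Of other NADPH oxidase genes and partners, 7 of 12 passed the filter on low counts. Of these 7, 1 rose and 1 fell, beside 27% of all genes tested that were called. Txndc11, whose protein binds the DUOX enzymes during their maturation, had 281 to 287 reads in NP and 212 to 238 in LP (log2 fold change -0.50, SE 0.068, adjusted p = 2.22e-05 by edgeR). It thus changed in the direction opposite to Duoxa2. Ncf1, an organiser of the phagocyte oxidase, had 22 to 23 reads in NP and 47 to 62 in LP (1.18, adjusted p = 0.000103). Cybb, the catalytic subunit of that oxidase, had 28 to 33 and 37 to 51 reads (adjusted p = 0.295), and Rac2 had 16 to 17 and 21 to 32 (adjusted p = 0.133). Nox4, another peroxide-producing oxidase, was below the filter, with 2 to 3 reads in NP and 1 to 5 in LP.

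Genes for the folding of secreted proteins such as Tg were lower in LP, with 11 of 12 tested genes called lower and none higher. Their median log2 fold change was -0.49, and 11.7% of all genes tested were called lower. The chaperone gene Hspa5 had 13860 to 14199 reads in NP and 7807 to 7974 in LP (-0.98, SE 0.037, adjusted p = 1.17e-12 by edgeR). With replicates 2 and 3 summed, its adjusted p-value was 7.32e-08 by edgeR. The disulfide isomerase gene Pdia4 fell by 1.00, the chaperone gene Hsp90b1 by 0.69 and the oxidase gene Ero1lb by 0.89 on the log2 scale, each with an adjusted p-value of 4.80e-08 or smaller. The summed share of reads of all 12 folding genes was 1.82% to 1.94% in NP and 1.17% to 1.22% in LP. The share of Tg differed by less than the spread between replicates. In the group for uptake and proteolysis of Tg, 2 of 9 genes rose, 2 fell and 5 were not called (median -0.14), beside 27% of all genes called. The protease genes Lgmn and Ctsd rose by 0.41 and 0.40, Ctsl fell by 0.49 (adjusted p = 1.43e-06), and the endocytic receptor gene Lrp2 by 0.14 (adjusted p = 0.0425), a call lost with replicates 2 and 3 summed (adjusted p = 0.144), with DESeq2 (adjusted p = 0.0528) and in 5 of the 6 fits without a replicate.

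**Figure D5:**
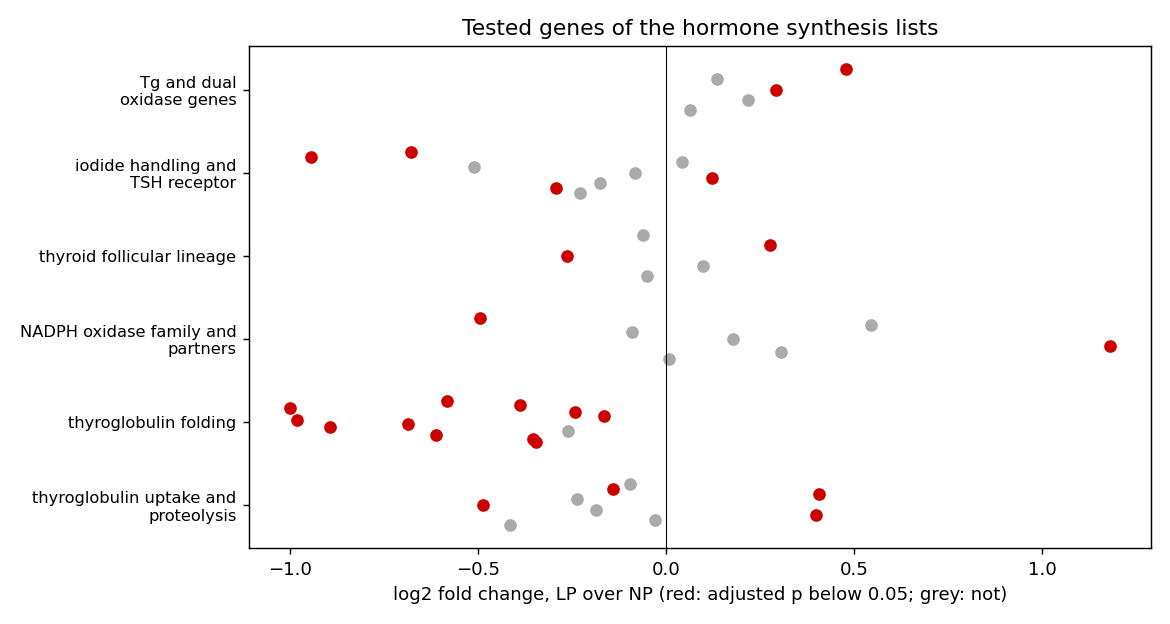
Log2 fold change of LP over NP for the tested genes of each group, red where the adjusted p-value was below 0.05 and grey otherwise. Both called genes of the top row lie to the right of 0, and the 11 called genes for folding lie to its left.

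Markers of some other cell types differed between the groups as well, beside 27% of all genes tested that were called. Of 7 tested skeletal muscle markers, 6 rose. Acta1 had 0 to 166 reads in NP and 0 to 186 in LP and was not called. Of 15 muscle markers listed, 9 had a row. These had a summed share of reads of 0.0021% to 0.0073% in NP and 0.337% to 0.358% in LP. With these markers left out of the normalization the log2 fold changes of Duox2 and Duoxa2 were 0.29 and 0.48, as before. That setting changes the scaling alone, which markers of such small shares can move little. The part of muscle tissue in the values of these genes was not tested. Of 4 tested markers of airway epithelium, where dual oxidases are also active, 3 rose. The 7 markers with a row had 72 to 80 reads in NP and 128 to 163 in LP, not scaled to depth. The summed share of these markers was 0.0024% to 0.0028% in NP and 0.0039% to 0.0047% in LP. Among them Scgb1a1 had 1 to 8 reads in NP and 15 to 20 in LP, Scgb3a1 had 2 to 4 and 26 to 34, and Bpifa1 had 3 to 6 and 21 to 32. Krt5 had 51 to 68 and 53 to 86 reads and was not called. The part of these cells in the rise of Duox2 and Duoxa2 was not tested. Of the 6 parathyroid and C cell markers 2 fell, Pth by 0.30 and Calca by 0.32 on the log2 scale. The summed share of all 6 was 1.87% to 1.98% in NP and 1.54% to 1.64% in LP. The replicate block added a call for the parathyroid factor gene Gcm2, higher in LP by 0.18 (adjusted p = 0.0840 without the block and 0.0463 with it, by edgeR). Macrophage markers (0 of 7 called) and adipocyte markers (0 of 3 tested) gave no calls by edgeR after adjustment, and none by DESeq2. The macrophage share was 0.0145% to 0.0165% in NP and 0.0154% to 0.0178% in LP. For the 4 adipocyte markers with a row it was 0.0054% to 0.0064% in NP and 0.0056% to 0.0068% in LP. At an unadjusted p below 0.05, edgeR had 2 of the macrophage markers and 0 of the adipocyte markers, and with replicates 2 and 3 summed the complement gene C1qa was called higher in LP (adjusted p = 0.0334 by edgeR), as it was with the replicate block (adjusted p = 0.00748).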

How the data were processed

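Thyroid RNA in 3 NP and 3 LP (day 18) samples was sequenced from libraries of the TruSeq RNA kit. The authors mapped reads to rn5 with TopHat 1.4.0, counted them per Ensembl gene model with HTSeq-count, and deposited raw counts. How genes were selected for the files and whether strand was used are not given in the sources used here.

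Counts were analysed in R 4.3.3. LP and NP were compared with edgeR 4.0.16 (glmQLFit and glmQLFTest, TMM, default low-count filter, 11738 of 15388 genes kept), with Benjamini-Hochberg adjusted p-values, called below 0.05. An SE is the absolute log2 fold change over the square root of F. CPM used TMM-scaled libraries. Alternatives were DESeq2 1.42.0, other scalings, no filter, replicates 2 and 3 summed, a replicate block and each replicate left out. Steps were tested on simulated counts. The main fit was unpaired, and the replicate block, which pairs the replicate numbers, was an alternative only. This pairing was checked by correlating the deviations of libraries from their group means. Same-numbered NP and LP libraries had correlations of 0.49, 0.22 and 0.19 for replicates 1, 2 and 3. Deviations within a group depend on each other, so these correlations are not separate observations. Replicates 2 and 3 were not told apart by this check (0.22 for NP 2 with LP 3 and for NP 3 with LP 2), and no label names a shared day or litter. Depth is 2752144 to 3449857 reads per sample, and Wilson intervals and floors cover counting error only, while intervals of fold changes come from the edgeR fit.

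Members and gene lists were chosen with earlier results of these data known. Named are the members, up to 4 genes per pathway list by smallest adjusted p-value, the markers, and the 3 nearest profiles per member, of which those of Duox1 are not reported here. Nox4 and Sla were named after their values were seen. RefSeq (GRCr8) gave gene order for all 5 members and promoters for 3, Duox1, Duox2 and Duoxa1. The thyroid pathway holds other genes that are not analysed here.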

Additional observations from a re-analysis of the deposited data

How the results depend on the processing

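The number of the 5 genes called was 2 on the 6 libraries, and it was 1 with DESeq2 in place of edgeR and between 1 (without LP replicate 1) and 4 (without NP replicate 1) with a replicate left out. Over all genes edgeR called 3172 and DESeq2 1922. The log2 fold change of Tg was 0.063 with the replicate block and 0.060 with the block and replicates 2 and 3 summed, a setting chosen after the data were seen. It was 0.069 with Tg left out of the normalization (adjusted p = 0.0381 by edgeR), -0.0093 with library totals alone, and between 0.025 and 0.099 with a replicate left out. Tg passed the test with the block, without Tg in the normalization, and without NP replicate 1 or LP replicate 2. The p-values with the block rest on a small spread between libraries and cannot be read as a measure of variation between animals. The block changed the call of no other of the 5 genes, and among the list genes it added Gcm2 and C1qa. Duox1 lay between 0.14 and 0.32 with a replicate left out, and Duox2 between 0.23 and 0.34, and at 0.29 with DESeq2. Duox2 relative to Tg lay between 0.20 and 0.27 on the log2 scale with a replicate left out. With a replicate left out Duoxa1 lay between 0.076 and 0.21 and Duoxa2 between 0.42 and 0.55, and both kept their direction and their side of the threshold under each alternative run. The causes of these shifts were not tested, and fewer libraries enter where a replicate is left out. The dual oxidase genes had 91 to 238 reads per library, which limits the precision of their values.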
